A study of Danio rerio with 10 samples.

Results

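From a set of 6 genes of lipid supply, 5 were followed in oligodendrocyte progenitor cells (OPCs) and mature oligodendrocytes (OLs) of the adult zebrafish spinal cord. They are hmgcs1 of cholesterol synthesis, fasn and scd of fatty acid synthesis, the transcription factor gene srebf1 and the apolipoprotein gene apoeb. The set was chosen by Ensembl identifier for their known roles, out of 31388 features in the deposited count table. Earlier results of these data were known when it was chosen. RNAseq had been carried out on cells FACsorted from fish of the line Tg(olig2:eGFP), the OPC population, and of the line Tg(mbp:eGFP), the OL population. Each population had 5 biological replicates, called OPC1 to OPC5 and OL1 to OL5 here after the replicate numbers in the labels. The labels name no lesion, treatment or further allele for either population. Cells were gated on GFP driven by the olig2 or the mbp regulatory sequence. In the study some ventral radial glia, the stem-like cells that line the spinal canal, also carried olig2:GFP, so the OPC libraries may hold them. Spinal cords of several fish could be dissected together, and the populations differ in fish line and in the cell strainer used, so line, strainer and population cannot be told apart. In such bulk libraries fewer cells of a type and less RNA per cell cannot be told apart either.

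Myelin is a lipid-rich membrane with an unusually high cholesterol content, and in mammals oligodendrocytes make most of that cholesterol themselves. Cholesterol synthesis starts from acetyl-CoA, and HMG-CoA synthase catalyses one of the first steps on the way to mevalonate. Fatty acid synthase builds palmitate from the same precursor, and stearoyl-CoA desaturase puts the first double bond into saturated fatty acids. Transcription factors of the SREBP family switch on both pathways when membrane sterol is low, and apolipoprotein E carries lipid between cells of the nervous system.

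The labels were checked first on genes of both cell types. Sorting used the regulatory sequences of olig2 and mbp, so olig2 and the mbp genes are no independent check. olig2 is also among the OPC marker features. The lineage gene olig1 averaged 1271 ± 371 normalized counts in OPCs and 24.6 ± 23.3 normalized counts in OLs, and olig2 averaged 17568 ± 4232 in OPCs and 3808 ± 1519 in OLs. Errors after ± are standard deviations (SD, n = 5) throughout. Of 11 OPC marker features 9 were tested, and 5 of these were higher in OPCs, against 9.01% of all tested features. Higher in OLs were 0, against 2.82%, and 4 were not called. The log2 fold change was negative for 2 of the 9. With 10 counts required in every library, 3 features remained and 1 was called, higher in OPCs. The myelin genes mbpa, mpz and cldnk were all lower in OPCs, with log2 fold changes of -0.81, -0.59 and -0.63 for OPC over OL. They were far from absent there. Of the 12 mature oligodendrocyte marker features, all tested, 5 were lower in OPCs, against 2.82% of all tested features. Higher in OPCs was 1, cnp, against 9.01% of all tested features. Its log2 fold change was 0.86 (adjusted p = 0.0299 by edgeR's quasi-likelihood test). With no filter, with 10 counts required in every library or with a replicate block, 0 of the 12 were higher in OPCs. The same held without OPC2, OPC3, OPC4, OL2, OL3 or OL5. With scaling by library size alone 2 of the 12 were lower in OPCs, and 7 log2 fold changes were positive, in place of 4. These 12 features summed to 244160 to 295970 TPM (transcript abundance scaled by gene length and by the library's total) in OPC libraries, against 337500 to 375570 TPM in OL libraries. Counts per library totalled 11072526 to 11960408 in OPCs and 13937725 to 20225093 in OLs, so every OL library was deeper. Normalized counts are the deposited counts divided by size factors, and they compare libraries for one gene. TPM, which also divides by gene length, was used wherever genes are compared with each other.

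hmgcs1, which acts early in cholesterol synthesis, was higher in OPCs than in OLs. fasn, scd and srebf1 did not pass the test in either direction. apoeb had the opposite sign to hmgcs1, and its difference fell just short of the threshold. In all, 1 of the 5 genes differed at the threshold of 0.05 on p-values that were Benjamini-Hochberg adjusted across the 12292 tested features of edgeR's quasi-likelihood fit. Among all tested features 11.8% differed, with 9.01% higher in OPCs and 2.82% higher in OLs. In the OL direction edgeR called 0 of the 5, although 1 of them, apoeb, had an unadjusted p under 0.05 and was called by DESeq2. In normalized counts only hmgcs1 of the 5 had no overlap between the libraries of OPCs and OLs, which was the case for 12.6% of all tested features. In TPM fasn did not overlap either, with a lowest OPC value of 10.7 TPM and a highest OL value of 8.73 TPM. TPM also depends on each library's total, and the share of all features without overlap was not counted in TPM. The p-values set the difference between the populations against the spread between these libraries.

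**Figure D1:**
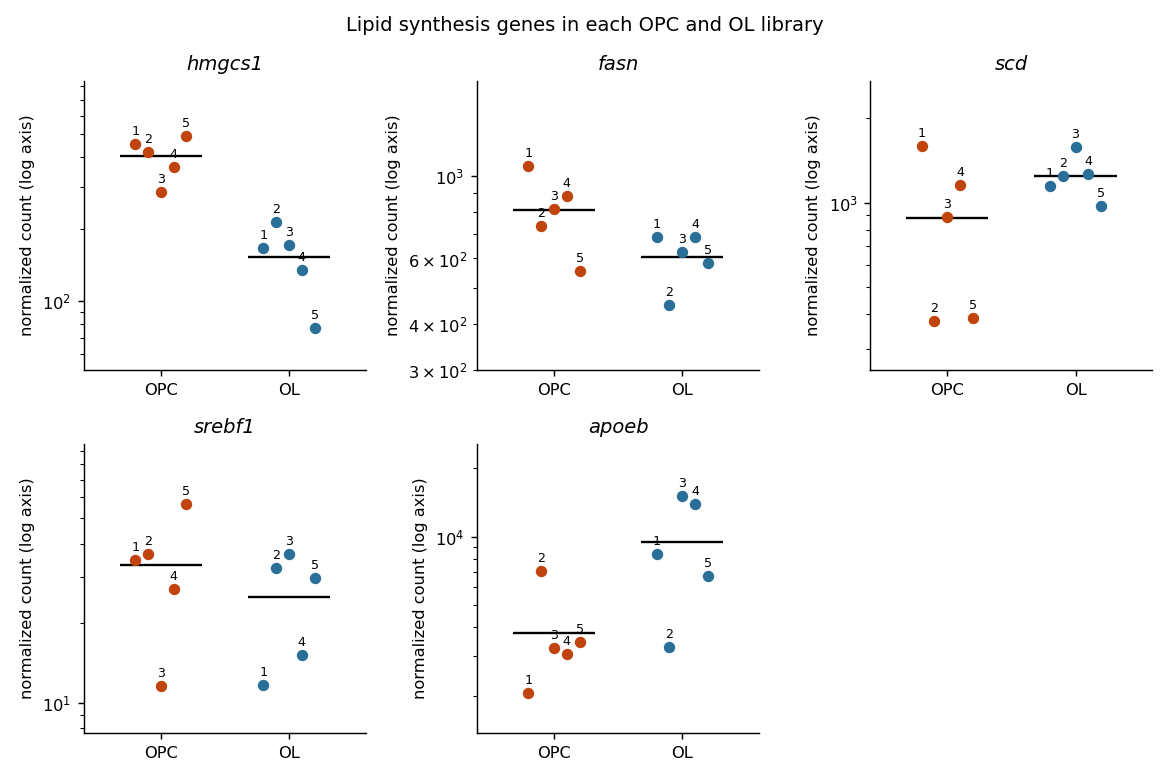
Normalized counts of hmgcs1, fasn, scd, srebf1 and apoeb (log axes) in the 5 OPC libraries (left of each panel) and the 5 OL libraries (right), with replicate numbers beside the points and a bar at each mean. All OPC points lie above all OL points for hmgcs1 alone, whereas for apoeb OPC2, at 7096, lies above OL2 and OL5, and OPC5, at 3459, lies above OL2, at 3272.

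hmgcs1 encodes the cytosolic HMG-CoA synthase (ENSDARG00000103025, GRCz10 chromosome 10, 6009365 to 6033188, plus strand, 11 exon blocks). It had 456, 422, 285, 364 and 492 normalized counts in OPC1 to OPC5, against 167, 215, 171, 134 and 76.9 in OL1 to OL5. The lowest OPC library, OPC3, stood above the highest OL library, OL2, so the populations did not overlap. The means were 404 ± 81.4 in OPCs and 153 ± 51.2 in OLs, a 2.64-fold difference. The log2 fold change was 1.40 (SE 0.27) with an adjusted p of 0.00320 by edgeR's quasi-likelihood test. It passed the threshold under all 18 alternative settings, whose adjusted p ranged from 1.6e-05 to 0.0134.

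fasn encodes fatty acid synthase (ENSDARG00000087657, GRCz10 chromosome 12, 33294765 to 33349529, plus strand, 43 exon blocks). It had 1064, 733, 815, 882 and 556 normalized counts in OPC1 to OPC5, against 684, 449, 625, 685 and 583 in OL1 to OL5. Here 4 OPC libraries lay above the highest OL library, but OPC5 lay below 4 of the OL libraries. The means were 810 ± 187 in OPCs and 605 ± 97.1 in OLs, with a log2 fold change of 0.42 (SE 0.19). The adjusted p of 0.209 by edgeR's quasi-likelihood test did not pass the threshold. Of 18 alternatives, with adjusted p from 0.0162 to 0.386, fasn was called only with scaling by library size alone, where its log2 fold change was 0.72 and the median of all tested features also moved up, to 0.37 in place of 0.06.

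scd encodes a stearoyl-CoA desaturase (ENSDARG00000033662, GRCz10 chromosome 12, 48407393 to 48421350, plus strand, 6 exon blocks). It had 1595, 379, 891, 1155 and 388 normalized counts in OPC1 to OPC5, against 1146, 1243, 1572, 1260 and 974 in OL1 to OL5. OPC2 and OPC5 lay far below every OL library, and OPC1 lay above all of them. The OPC libraries therefore spanned 4.21-fold, against 1.61-fold in OLs, and the coefficient of variation was 58.9% in OPCs and 17.6% in OLs. The difference between means of 881 ± 519 in OPCs and 1239 ± 218 in OLs did not pass edgeR's quasi-likelihood test (log2 fold change -0.49, SE 0.35, adjusted p = 0.463, with 0.140 to 0.712 over the alternatives). A second stearoyl-CoA desaturase gene, scdb, had 11687 ± 2185 normalized counts in OPCs and 10729 ± 1195 in OLs. It was picked out after its values had been seen, and its log2 fold change of 0.12 had an adjusted p of 0.689 by edgeR's quasi-likelihood test. Compared per length, scdb was far more abundant, as scd made up 9.00% ± 5.42 of the TPM of this pair in OPCs and 13.4% ± 2.52 in OLs. How the counting treated reads that match both genes is not given in the sources used here, so the split between them is uncertain.

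**Figure D2:**
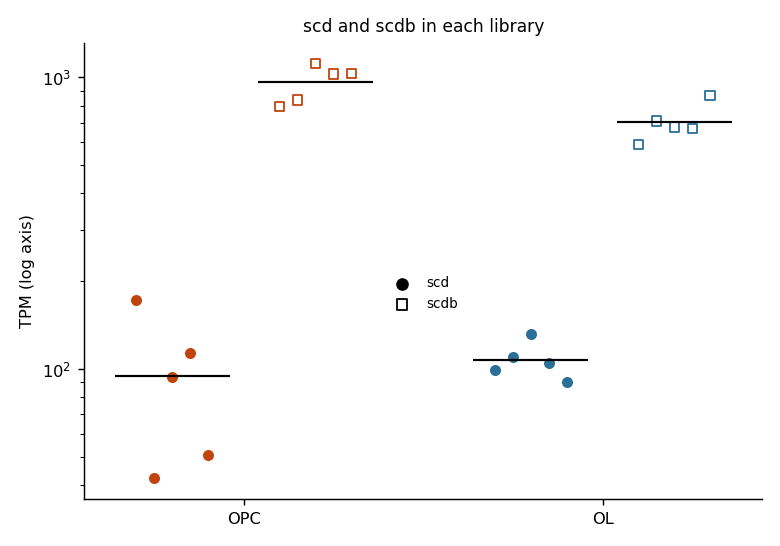
TPM (log axis) of scd (filled circles) and scdb (open squares) in the 5 OPC and 5 OL libraries, with bars at the means. scdb is the more abundant in every library, and scd made up 9.00% of the TPM of the pair in OPCs and 13.4% in OLs on average.

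srebf1 encodes the SREBP-1 precursor, in mammals the form that mainly acts on fatty acid genes (ENSDARG00000067607, GRCz10 chromosome 3, 61824619 to 61850706, minus strand, 24 exon blocks). It had 34.9, 36.7, 11.5, 26.9 and 56.4 normalized counts in OPC1 to OPC5, against 11.7, 32.3, 36.6, 15.2 and 29.8 in OL1 to OL5. The populations overlapped over most of their ranges, and the lowest value of all was in OPC3. The means were 33.3 ± 16.3 in OPCs and 25.1 ± 11.0 in OLs, from 10 to 59 reads per OPC library and 15 to 37 reads per OL library. No difference beyond the spread between libraries was detectable (log2 fold change 0.41, SE 0.52, adjusted p = 0.711 by edgeR's quasi-likelihood test, with 0.367 to 0.925 over the alternatives). With limma voom the sign turned to -0.11.

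apoeb encodes an apolipoprotein E, which in zebrafish is also known from microglia and from the yolk syncytial layer (ENSDARG00000040295, GRCz10 chromosome 16, 24045712 to 24048429, plus strand, 6 exon blocks). It had 2062, 7096, 3256, 3047 and 3459 normalized counts in OPC1 to OPC5. The OL libraries had 8363, 3272, 15047, 13947 and 6709 normalized counts in OL1 to OL5. OL1, OL3 and OL4 lay above every OPC library, whereas OL2 lay below OPC2 and OPC5, and OPC2 also lay above OL5. The means were 3784 ± 1927 in OPCs and 9468 ± 4960 in OLs, 2.50 times as high in OLs. The log2 fold change of -1.32 (SE 0.40) had an adjusted p of 0.0515 by edgeR's quasi-likelihood test and was not called. Over 18 alternatives the adjusted p ranged from 0.0105 to 0.121. apoeb was called without OPC2 (log2 fold change -1.68, adjusted p = 0.0152), without OL2 (-1.55, adjusted p = 0.0112) and without OL5 (-1.43, adjusted p = 0.0486), as well as without a filter (adjusted p = 0.0207) and with DESeq2 (adjusted p = 0.0105).

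Markers of microglia and leukocytes were read beside apoeb. Of 26 such features, 7 passed the filter on low counts, and 1 of these, itgb2, was higher in OPCs. This is 14.3% called, against 11.8% of all tested features. A further 4 features had 0 reads in every OPC library, whereas 0 features had 0 reads in every OL library. The 26 features summed to 12.2 to 136 TPM in OPC libraries and 12.4 to 97.1 TPM in OL libraries. The apoeb level was 305 ± 161 TPM in OPCs and 588 ± 290 TPM in OLs. The 3 features with the symbol MPEG1, a macrophage gene, had between 0 and 18 reads in any library, and p2ry12, a microglial receptor gene, had at most 1. The highest marker sums were in OPC3 and OL2, and apoeb was at its OPC median in OPC3 and at its lowest OL value in OL2. The part of microglia and leukocytes in the apoeb levels was not tested. The other apolipoprotein E gene, apoea, had at most 4 reads in any library and was not tested. apoc1, another lipoprotein gene of zebrafish macrophages, had 23.5 ± 30.1 normalized counts in OPCs and 36.0 ± 15.1 in OLs (adjusted p = 0.665 by edgeR's quasi-likelihood test).

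Within OPCs the 5 genes did not rank the libraries alike. OPC1 was highest for fasn and scd and lowest for apoeb. OPC5 was highest for hmgcs1 and srebf1 and lowest for fasn. OPC5 also had the highest olig2 value, 24910 normalized counts. Its OPC marker sum, which includes olig2, was 4223 TPM, against 1985 to 2271 TPM in the other OPC libraries. Without OPC5 the log2 fold change was 1.32 for hmgcs1, still called, and 0.53 for fasn and -0.30 for scd, which were not (edgeR, adjusted p of 0.00689, 0.0562 and 0.622). For srebf1 it was 0.14 without OPC5, in place of 0.41, and for apoeb it was -1.29, and neither was called (edgeR, adjusted p of 0.911 and 0.0874). In OLs, OL3 was highest for scd, srebf1 and apoeb, and OL1 was lowest for srebf1.

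Per length, apoeb was the most abundant of the 5 genes in both populations. In OPCs the mean TPM fell in the order apoeb (305 ± 161), scd (94.4 ± 52.7), hmgcs1 (20.2 ± 5.91), fasn (13.0 ± 2.38) and srebf1 (1.67 ± 1.00). Neighbours in that order overlapped between apoeb and scd and between hmgcs1 and fasn. In OLs the order was apoeb (588 ± 290 TPM), scd (107 ± 15.7), fasn (7.75 ± 1.11), hmgcs1 (5.92 ± 1.98) and srebf1 (0.962 ± 0.429). There the only overlapping neighbours were fasn and hmgcs1. The order of this pair thus differed between the populations, although the ranges of the 2 genes overlapped in OPCs and in OLs. Within single libraries hmgcs1 was above fasn in every OPC library. In OLs fasn was above hmgcs1 in every library except OL2, with 5.88 TPM for fasn and 8.52 TPM for hmgcs1. The difference between the 2 genes was not tested.

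The wider cholesterol pathway was read from a list of its enzymes, matched to 20 features, of which 18 could be tested. Higher in OPCs by edgeR's quasi-likelihood test were 3 of the 18, against 9.01% of all tested features. Higher in OLs were 0, against 2.82% of all tested features, a share at which 18 features can easily hold 0 calls. Without hmgcs1, 2 of 17 were higher in OPCs, not far from the share of 9.01%. In the OL direction 0 had an unadjusted p under 0.05 with edgeR, as with DESeq2. The log2 fold change was positive for 17 of the 18, and its median was 0.34, against 0.06 over all tested features, of which 6703 of 12292 were positive. The count of positive values among the 18 was 12 without OPC4, 13 with a replicate block and 15 to 18 in the other settings that tested the same 18. Beside hmgcs1, the called genes were a squalene epoxidase and lanosterol synthase, which stand next to each other where squalene is closed into the sterol ring. The called squalene epoxidase feature, SQLE ENSDARG00000079946, had 61.0, 32.5, 18.4, 75.1 and 20.1 normalized counts in OPC1 to OPC5, against 10.2, 5.24, 12.6, 6.07 and 18.3 in OL1 to OL5. OPC3 and OL5 almost touched, and the log2 fold change was 1.97 (adjusted p = 0.0443 by edgeR, with 0.00484 to 0.147 over the alternatives). With 10 counts required in every library this feature was not tested. lss, the lanosterol synthase gene, had 132, 220, 120, 159 and 238 normalized counts in OPC1 to OPC5, against 80.4, 84.8, 80.0, 112 and 110 in OL1 to OL5. These did not overlap either, with a log2 fold change of 0.90 (adjusted p = 0.0468 by edgeR, with 0.00701 to 0.107 over the alternatives).

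Among the enzymes that did not pass, the largest log2 fold change belonged to dhcr7, which makes cholesterol from its last precursor in one branch of the pathway. It averaged 210 ± 137 normalized counts in OPCs and 88.0 ± 18.2 in OLs, a log2 fold change of 1.26 (adjusted p = 0.0977 by edgeR). fdft1, the squalene synthase gene, and the other squalene epoxidase feature, SQLE ENSDARG00000063319, were not tested. The count of called enzymes moved with the processing, to 1 without OPC2, OPC4, OL1, OL2 or OL3. Requiring 10 reads in every library left 1, as did no filter, whereas DESeq2 gave 5 and scaling by library size alone gave 7.

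**Figure D3:**
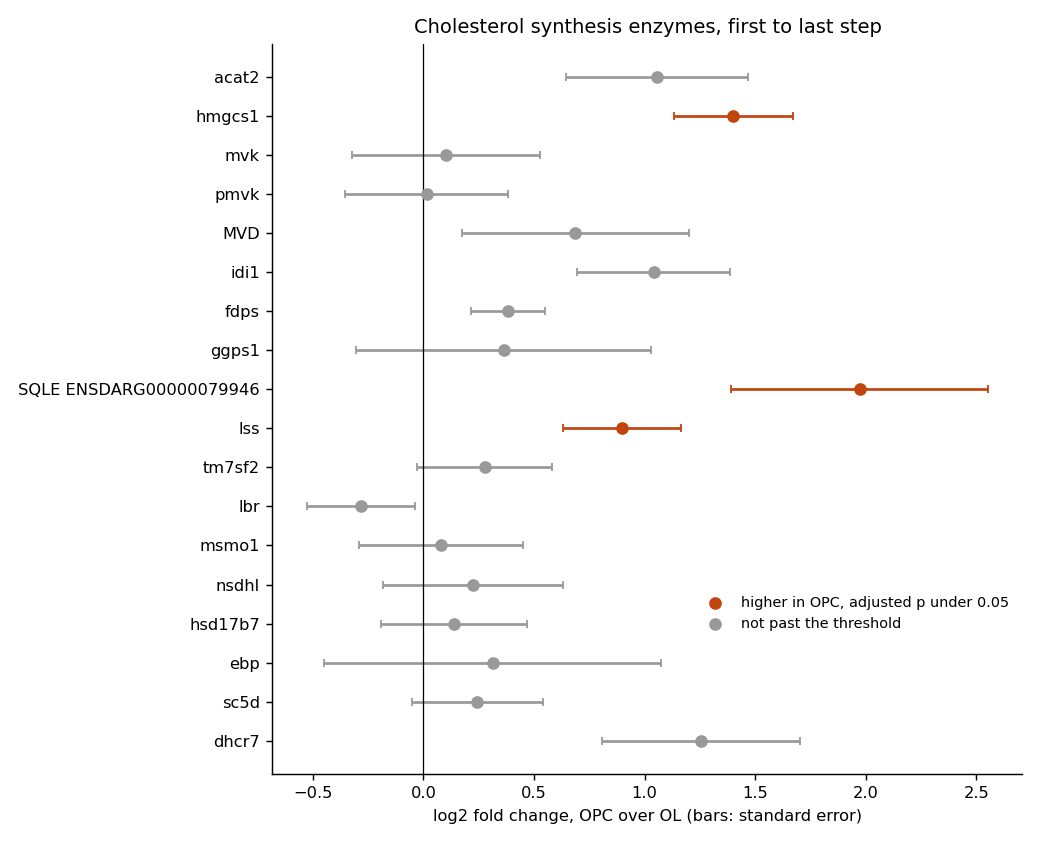
Log2 fold change, OPC over OL, of the 18 tested cholesterol synthesis features in the order of the pathway from top to bottom, with bars of 1 standard error. hmgcs1, SQLE ENSDARG00000079946 and lss (orange) passed an adjusted p of 0.05, and 17 of the 18 points lie right of 0.

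Some markers of radial glia and of neurons were also higher in OPCs. Among 12 tested radial glia features 6 had higher and 1 had lower levels in OPCs, against 9.01% higher and 2.82% lower in OPCs among all tested features, and the list summed to 11916 to 13541 TPM in OPC libraries and 7058 to 9629 TPM in OL libraries. gfap itself averaged 99.9 ± 71.6 normalized counts in OPCs and 35.2 ± 15.5 in OLs (adjusted p = 0.110 by edgeR). Among 12 tested neuron features 7 had higher levels in OPCs, against the same 9.01%, and 0 in OLs, against the same 2.82%, by edgeR. In the OL direction 0 had an unadjusted p under 0.05. The neuron list summed to 445 to 761 TPM in OPC libraries and 318 to 449 TPM in OL libraries. TPM depends on each library's total, so the 2 list sums are not on the scale of the normalized counts. For comparison, fasn averaged 810 normalized counts in OPCs and 605 in OLs, but 13.0 and 7.75 TPM. The list sums were not compared in normalized counts. A feature could pass the filter on low counts through 1 population alone. With 10 counts required in every library, 1 of 7 radial glia features was higher and 1 was lower in OPCs. Of 5 neuron features 0 were then called, against 469 of 9204 features in all. The part of such cells in the higher hmgcs1, SQLE and lss levels was not tested.

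Enzymes of fatty acid synthesis, elongation and desaturation were read from a list of 33 features. Of these 23 were tested, 1 was higher in OPCs and 1 was higher in OLs, which is 8.70% called against 11.8% of all tested features. The median log2 fold change was -0.042, or 0.25 with scaling to library size alone. acaca, the acetyl-CoA carboxylase that feeds fatty acid synthase, averaged 1428 ± 299 normalized counts in OPCs and 1331 ± 334 in OLs (adjusted p = 0.842 by edgeR). ACLY ENSDARG00000099079, an ATP citrate lyase that supplies acetyl-CoA, had an adjusted p of 0.889. The called features were both elongases of long fatty acids. ELOVL4 ENSDARG00000006773 had 47.9, 92.4, 86.3, 83.0 and 59.3 normalized counts in OPC1 to OPC5, against 12.4, 0.874, 2.29, 0 and 10.6 in OL1 to OL5. No OL library reached the lowest OPC library, and the log2 fold change was 3.75 (adjusted p = 0.00661 by edgeR). This ELOVL4 feature was not tested when a minimum count was required in every library. ELOVL1 ENSDARG00000103735 averaged 36893 ± 8061 normalized counts in OPCs and 54292 ± 4313 in OLs, a log2 fold change of -0.56 (adjusted p = 0.0382 by edgeR, with 0.00974 to 0.224 over the alternatives). The other feature named ELOVL1, ENSDARG00000099960, had a log2 fold change of -0.23 (adjusted p = 0.652), which turned to 0.062 with scaling to library size alone.

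Of the SREBP pathway regulators 8 of 14 features were tested. Among these 8, edgeR called 0, against 11.8% of all tested features, with 0 at an unadjusted p under 0.05. So few features can hold 0 calls at that share. DESeq2 also called 0, whereas scaling by library size alone called 2. The median log2 fold change of the 8 was 0.26, but 0.036 without OPC5 and -0.050 with limma voom. srebf2, whose product in mammals mainly acts on cholesterol genes, averaged 618 ± 114 normalized counts in OPCs and 598 ± 74.5 in OLs (log2 fold change 0.05, adjusted p = 0.911 by edgeR). insig1, which holds SREBP back in the endoplasmic reticulum when sterol is plentiful, averaged 4367 ± 1441 in OPCs and 3344 ± 579 in OLs (log2 fold change 0.39, adjusted p = 0.331). scap, the escort protein gene of SREBP, had 0 to 49 reads in OPC libraries and 1 to 27 in OL libraries and was not tested.

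The list of sterol and lipoprotein transport matched 32 features, of which 18 were tested. Of these 3 were higher in OPCs and 2 were higher in OLs, which is 27.8% called against 11.8% of all tested features, and the median log2 fold change of -0.23 turned to 0.048 with scaling to library size alone. The features higher in OPCs were lipoprotein receptors and a cholesterol exporter. LRP1 ENSDARG00000097827, an apolipoprotein E receptor in mammals, had 241, 551, 306, 444 and 283 normalized counts in OPC1 to OPC5, against 20.5, 68.2, 122, 40.4 and 12.5 in OL1 to OL5. The populations were well apart, with a log2 fold change of 2.80 (adjusted p = 0.0030 by edgeR). abca1a, which exports cholesterol to apolipoproteins, averaged 132 ± 80.5 in OPCs and 25.1 ± 15.1 in OLs (log2 fold change 2.39, adjusted p = 0.0134). lrp8, another apolipoprotein E receptor gene, overlapped between the populations at a log2 fold change of 1.98 (adjusted p = 0.0338, with 0.00230 to 0.107 over the alternatives). ldlra, an LDL receptor gene, did not pass (log2 fold change -0.52, adjusted p = 0.680). Of the features higher in OPCs, abca1a and lrp8 were not tested when a minimum count was required in every library. LRP1 ENSDARG00000097827 was tested with that filter and was called.

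Higher in OLs were cyp46a1.2 and NPC2 ENSDARG00000090912. In mammals CYP46A1 turns brain cholesterol into an oxysterol that can leave the tissue, and NPC2 moves cholesterol out of lysosomes. cyp46a1.2 had 194, 162, 290, 214 and 292 normalized counts in OPC1 to OPC5, against 418, 423, 341, 417 and 339 in OL1 to OL5. No OPC library reached the lowest OL library, at a log2 fold change of -0.75 (adjusted p = 0.0304 by edgeR, with 0.00344 to 0.190 over the alternatives). NPC2 ENSDARG00000090912 had a log2 fold change of -0.44 (adjusted p = 0.0490, with 0.0130 to 0.425 over the alternatives).

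Sphingolipids and galactolipids make up much of the remaining myelin lipid, and their synthesis genes were read from a list of 22 features. Of these 13 were tested, 1 was higher in OPCs and 1 was higher in OLs, which is 15.4% called against 11.8% of all tested features. The median log2 fold change was -0.054, or 0.27 with scaling to library size alone. sptlc1, a subunit of the serine palmitoyltransferase that starts sphingolipid synthesis, had 589, 721, 689, 712 and 576 normalized counts in OPC1 to OPC5, against 1349, 1042, 1054, 1103 and 1137 in OL1 to OL5. The populations were apart, with a log2 fold change of -0.79 (adjusted p = 0.0020 by edgeR). ugcg, which makes glucosylceramide, averaged 133 ± 85.2 in OPCs and 18.1 ± 9.09 in OLs (log2 fold change 2.87, adjusted p = 0.00227). Both calls held under all 18 alternatives. The galactolipid genes ugt8 and fa2h, which act in the synthesis of galactosylceramide and of its hydroxylated form, did not pass, with log2 fold changes of 0.16 and -0.46 (adjusted p of 0.766 and 0.401 by edgeR).

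**Figure D4:**
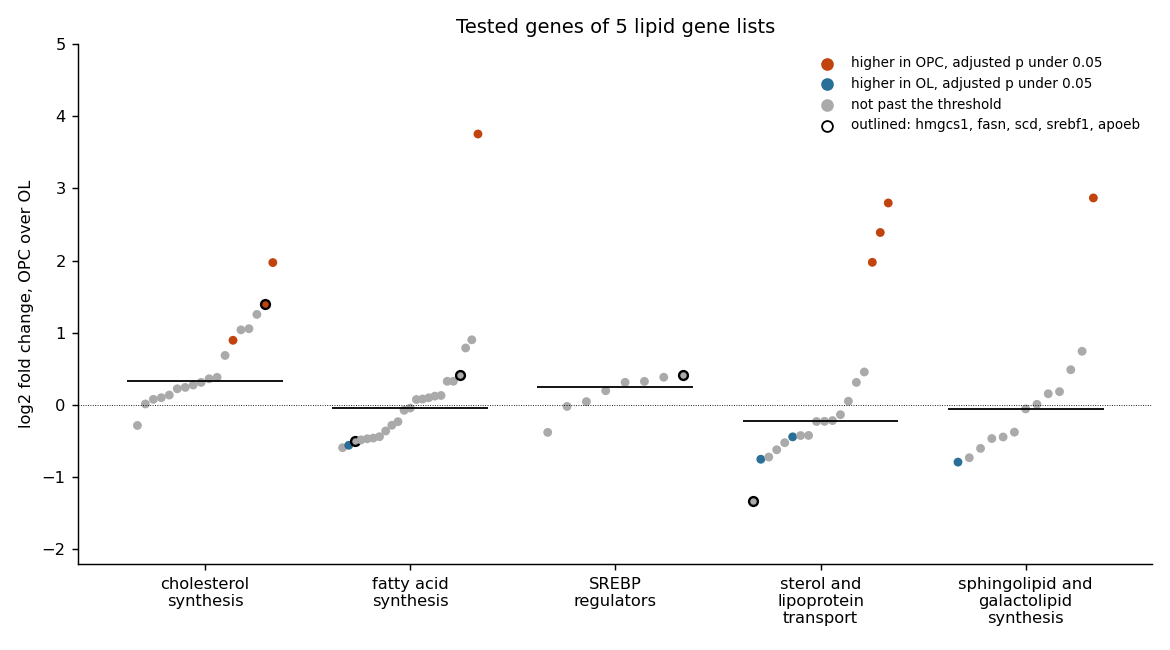
Log2 fold change, OPC over OL, of every tested feature in 5 lipid gene lists, sorted within each list, with a bar at each list median, orange and blue for features past an adjusted p of 0.05 and black outlines around hmgcs1, fasn, scd, srebf1 and apoeb. The medians are 0.34, -0.042, 0.26, -0.23 and -0.054 from left to right, against 0.06 for all tested features, and with library size alone they are 0.63, 0.25, 0.58, 0.048 and 0.27, against 0.37, while the SREBP regulator median is 0.036 without OPC5 and -0.050 with limma voom.

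The genes most like each of the 5 across the 10 libraries were taken by the mean absolute difference of centred log2 values. The search covered tested features with a symbol, without those not reported here. For hmgcs1 the nearest was MFSD2A, a transporter of lysophosphatidylcholine, at a mean difference of 0.250. It averaged 1663 normalized counts in OPCs and 572 in OLs (log2 fold change 1.54). As MFSD2A was chosen for its likeness to hmgcs1 in these libraries, that difference is no separate result. For fasn the nearest was insig1, at 0.0919, and both ranked the OPC libraries in the same order, OPC1, OPC4, OPC3, OPC2 and OPC5. For scd it was KDSR, which makes dihydrosphingosine for sphingolipids, at 0.220. The next nearest of these genes were ODC1 of polyamine synthesis for hmgcs1, the translation initiation factor gene EIF2B1 for fasn and dmac2 for scd, at 0.263, 0.0931 and 0.223. apoeb had no equally close neighbour, with a smallest difference of 0.396 (si:dkey-210j14.5) and si:dkey-184j23.1 next at 0.437. srebf1 was nearest to the kinase gene PDPK1 at 0.235 and to RBM27 at 0.236.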

How the data were processed

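RNA of FACsorted olig2:GFP-positive (OPC) and mbp:GFP-positive (OL) cells had been reverse transcribed, amplified as full-length cDNA and sequenced in 10 libraries, 5 per population. The authors deposited raw read counts per Ensembl gene, mapped to GRCz10 with GSNAP and counted with featureCounts 1.5.2 according to the submitters' notes. Whether the counting used strand, and how it treated reads that match several genes, is not given in the sources used here. PCR copies are not told apart, so counts are not counts of molecules.

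filterByExpr of edgeR 4.0.16 passed 12292 of 31388 features, and size factors (0.869 to 1.37) were estimated from these with DESeq2 1.42.0. OPCs were compared with OLs in R 4.3.3 by the quasi-likelihood test of edgeR, p-values were Benjamini-Hochberg adjusted across all tested features, and the threshold was 0.05. Summaries were made in Python 3.11.15. The test was checked on data with known changes. TPM was computed from the counts and the gene lengths in the table. No library repeated the counts of another.

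A symbol was found for 25925 of the identifiers. List members were matched by symbol, then by the symbol without its paralog letter, then by synonym, and features that share a symbol are named with their identifier. Named were the 5 genes, up to 3 called genes per list and direction whose higher mean reached 50 normalized counts, and fixed check genes and pathway genes. The genes and the lists were chosen with earlier results of these data known. Alternatives were other normalizations (TMM, library size alone), filters, tests (DESeq2, voom with quality weights in limma 3.58.1), a threshold of 0.01, a replicate block, thinning to the smallest total of 11072526 counts, and leaving out each library. Sequences and promoter motifs were not analysed here, and 1 gene of the set and some pathway features are not reported here.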

Additional observations from a re-analysis of the deposited data

Results flagged for a closer look

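A value was singled out where 1 library of a population stood far from the other 4 by Dixon's criterion. Of 78 groups of 5 libraries examined, 8 had such a library, where chance gives about 1 in 20 groups, or 3.90.

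Among the 5 genes this concerned apoeb alone, with 7096 normalized counts in OPC2 against 2062 to 3459 in the other OPC libraries. OPC5 stood apart for olig2, with 24910 normalized counts against 13998 to 16600, and for the summed OPC markers, with 4223 TPM against 1985 to 2271 TPM.

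The acetyl-CoA carboxylase gene acaca had 748 normalized counts in OL5 against 1400 to 1589 in the other OL libraries, and the fatty acid hydroxylase gene fa2h had 948 in OL4 against 651 to 736. apoc1 had 77.1 normalized counts in OPC3 against 7.35 to 14.2 in the other OPC libraries. The summed microglia and leukocyte markers were highest in that same library, at 136 TPM against 12.2 to 40.2 TPM, apoc1 being a member of that list. In OLs the same sum was 97.1 TPM in OL2 against 12.4 to 26.9 TPM, and OL2 had the lowest apoeb level of the OL libraries.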

How the results depend on the processing

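hmgcs1 was called under all 18 alternatives, and scd and srebf1 under none. fasn was called with library size alone (log2 fold change 0.72), and srebf1 turned to -0.11 with limma voom. apoeb was called without a filter (-1.32) and with DESeq2 (-1.33). With 1 library left out, the log2 fold change ranged from -1.68 to -1.10 for apoeb, from 1.23 to 1.55 for hmgcs1, from 0.30 to 0.53 for fasn, from -0.82 to -0.30 for scd and from 0.14 to 0.63 for srebf1. The number of the 5 genes called was 1, against 2 with library size alone, with no filter and with DESeq2, and 1 to 2 with 1 library left out. The order of the 5 genes by level did not change under normalized count per kilobase or without any 1 library.

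Over all tested features, 1455 differed, against 3253 with DESeq2, 2337 with no filter, 469 when every library needed 10 counts, 877 at a threshold of 0.01 and 1282 to 1796 without 1 library. Features higher in OPCs numbered 1108, against 1971 with no filter, 1825 with library size alone, 270 with 10 counts and 2535 with DESeq2. Features higher in OLs numbered 347, against 118 with library size alone, 199 with 10 counts, 718 with DESeq2, 638 with limma voom and 119 at 0.01. Features higher in OPCs made up 76.2% of those called, against 93.9% with library size alone and 57.6% with 10 counts in every library.

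Of the lists, cholesterol synthesis had 3 calls, against 1 with no filter, 7 with library size alone, 1 with 10 counts, 5 with DESeq2, 1 at 0.01 and 1 to 3 without 1 library. Fatty acid synthesis had 2, against 4 with library size alone, 0 with 10 counts, 5 with DESeq2, 1 at 0.01 and 1 to 3 without 1 library. SREBP regulators had 0, against 2 with library size alone. Transport had 5, against 3 with library size alone, 1 with 10 counts, 9 with DESeq2, 1 at 0.01 and 3 to 7 without 1 library. Sphingolipid synthesis had 2, against 4 with library size alone and 5 with DESeq2.

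Signs turned for genes near 0. With limma voom this was so for srebf2 (-0.086), ACLY ENSDARG00000099079 (-0.12) and ACLY ENSDARG00000055652 (-0.29). With library size alone it was so for ELOVL1 ENSDARG00000099960 (0.062). Without 1 library the log2 fold change ranged from -0.057 to 0.11 for srebf2, from -0.054 to 0.18 for acaca, from -0.13 to 0.17 for ACLY ENSDARG00000099079 and from -0.30 to 0.33 for ACLY ENSDARG00000055652. The cause of these shifts was not tested.

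Same-numbered OPC and OL libraries come from different fish lines, and the labels name nothing else that they share. The correlation of their deviations was 0.024 to 0.104, against -0.102 to 0.0729 for libraries of other numbers. Of the 5 OPC libraries, 4 correlated best with their own number. Whether same-numbered libraries were prepared together was not tested, and the main test did not pair them. With a replicate block 1407 features differed, 1 cholesterol, 4 fatty acid and 3 transport genes were called, and ACLY ENSDARG00000055652 turned to -0.064. hmgcs1 was called in that fit and the other 4 genes were not. srebf1 rests on the fewest reads of the 5 genes.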
